A study of Mus musculus with 9 samples.

Results

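Extracellular ATP and adenosine signalling was examined through 10 genes in mouse primary macrophages grown in culture, which engulf dying cells and microbes. The genes were a fixed list of symbols (Entpd1, Nt5e, Ada, Slc29a1, Adora2a, Adora2b, Adora3, P2rx4, P2rx7 and P2ry6). All 10 were matched by Ensembl identifier among the 34866 genes of the deposited tables. The macrophages were kept for 7 days in standard oxygen (standard group), given 1% oxygen for 3 hours after standard oxygen (acute hypoxia) or kept for 7 days in 1% oxygen (chronic hypoxia), with 3 samples in each group. All groups grew in alpha-MEM with serum and L929-conditioned medium, which supports macrophage growth. The series calls its 3 samples a group biological replicates. The sources used here give neither the strain nor the age of the mice and do not say from which tissue the cells came. Expression is given in TPM, each gene's share of a library's transcripts after correction for gene length, so levels can be compared between genes. TPM keeps no record of library size, so the depth is unknown and the spread over 3 samples is the only measure of error.

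ATP that leaves a cell acts as a signal at its surface. P2X receptors are ion channels opened by ATP, and P2Y receptors couple nucleotides to G proteins. Ectonucleotidases then cut ATP stepwise to AMP and to adenosine, which acts on its own receptors, and adenosine is removed by uptake into cells and by deamination to inosine. In macrophages P2X7 is best known for triggering the NLRP3 inflammasome, while the adenosine receptors encoded by Adora2a and Adora2b raise cAMP and dampen inflammatory output.

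Sample descriptions end in digits that recur once in each group, and the 3 sets are called here codes X, Y and Z. X was on the replicate numbered 1 in each title. Code Y was on replicate 3 of standard oxygen and replicate 2 of both hypoxia groups, and code Z on replicate 2 of standard oxygen and replicate 3 of both hypoxia groups. What the codes stand for is not stated. Over genes with a mean of at least 1 TPM, the first principal component (36.9% of the variance) set the 3 libraries of code Z apart from the other 6. The second (25.4%) set the 3 chronic libraries apart from the 6 of standard oxygen and acute hypoxia. The number of genes at 1 TPM or more was 10724 in the lowest library and 11208 in the highest. All 7 macrophage markers (Adgre1, Csf1r, Cd68, Itgam, Fcgr1, Lyz2 and Cd14) were at 28.4 TPM or more in every library. They were not all level between groups. Csf1r was at 439 to 513 TPM in standard oxygen and 579 to 778 in chronic hypoxia, and Itgam at 481 to 625 and 729 to 807. Cd14 was at 908 to 1379 and 692 to 794 TPM in the same order, and the other markers of this list overlapped. Adgre1 was at 253 TPM in the chronic library of code Z and at 474 to 581 TPM in the others. Markers of T cells, B cells, dendritic cells, fibroblasts and mast cells were all under 1 TPM in every library. Of the neutrophil list, S100a8 was at 895 to 1593 TPM in standard oxygen, 937 to 1906 in acute hypoxia and 258 to 582 in chronic hypoxia, while Camp was at 0.133 to 1.65, 0.143 to 1.44 and 1.55 to 2.03 TPM in the same order. The other 3 neutrophil markers, Ly6g, Mpo and Elane, were at 0.765 TPM or less. Of the endothelial list, Pecam1 was at 10.8 to 21.9 TPM in standard oxygen, 15.2 to 24.9 in acute and 39.2 to 42.7 in chronic hypoxia, with Cdh5, Kdr and Tie1 at 0.815 TPM or less. The part of these marker differences in the results on the 10 genes was not tested. In bulk samples such as these, fewer cells that express a gene and less RNA per cell cannot be told apart.

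Comparisons were tested with limma on log2(TPM + 1) over all genes with a mean of at least 1 TPM, and a gene passed at a Benjamini-Hochberg adjusted p under 0.05. All 10 genes reached that mean in all 3 comparisons. Fits were made with no block (unblocked) and with the description code as a block (code-blocked). Libraries of the same code deviated together in every pair. Because code Z stood apart in each group, this does not show that codes X and Y are matched across groups. Fits without the libraries of code Z rest on codes X and Y alone. No fit left out all libraries of code X or of code Y. A log2 fold change on this scale understates the change of genes with low TPM.

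Promoter sequences from RefSeq (GRCm38.p6) were available for 8 of the 10 genes. The 250 bases before the transcription start were searched on both strands for ACGTG and GCGTG, the core motifs through which hypoxia-inducible factors bind DNA. Over all 32851 promoters of this length, 16.6% held ACGTG, 28.2% held GCGTG and 38.6% held at least 1 of them. The sequences of 4 genes are shown because Nt5e and Adora2b lay higher in every acute library than in any standard one, and because P2rx7 lay higher in every chronic library than in any other and P2rx4 is its neighbour. Capitals mark a motif match.

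Nt5e, chr9:88327359-88327608, plus strand: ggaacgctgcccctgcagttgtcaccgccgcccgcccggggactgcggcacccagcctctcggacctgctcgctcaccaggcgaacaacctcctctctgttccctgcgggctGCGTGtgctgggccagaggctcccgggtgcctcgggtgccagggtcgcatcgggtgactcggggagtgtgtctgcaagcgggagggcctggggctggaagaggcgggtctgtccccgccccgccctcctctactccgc

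Adora2b, chr11:62248734-62248983, plus strand: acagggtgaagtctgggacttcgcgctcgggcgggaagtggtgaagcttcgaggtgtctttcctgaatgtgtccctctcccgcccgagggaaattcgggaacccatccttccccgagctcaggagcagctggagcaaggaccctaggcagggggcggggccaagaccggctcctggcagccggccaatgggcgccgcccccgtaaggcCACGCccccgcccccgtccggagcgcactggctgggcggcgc

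P2rx7, chr5:122643677-122643926, plus strand: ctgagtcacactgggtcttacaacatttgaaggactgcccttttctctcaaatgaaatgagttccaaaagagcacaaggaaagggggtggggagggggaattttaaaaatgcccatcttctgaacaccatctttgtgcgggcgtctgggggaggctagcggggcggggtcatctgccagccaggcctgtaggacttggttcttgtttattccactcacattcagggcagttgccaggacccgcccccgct

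P2rx4, chr5:122707294-122707543, plus strand: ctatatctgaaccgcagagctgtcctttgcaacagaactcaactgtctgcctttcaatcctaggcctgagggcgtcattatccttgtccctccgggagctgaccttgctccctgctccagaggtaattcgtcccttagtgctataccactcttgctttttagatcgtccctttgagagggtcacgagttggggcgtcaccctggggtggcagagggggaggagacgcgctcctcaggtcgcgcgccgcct

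The RefSeq start used for Nt5e lies inside the GENCODE gene. Nt5e held 1 GCGTG, 138 bases before the start. Adora2b held 1 GCGTG on the opposite strand, where it reads CACGC, 42 bases before the start. Neither motif was found before P2rx4 or before either of the 2 listed starts of P2rx7. Ada and Adora3 also had no match, Entpd1 had 1 GCGTG at 1 of its 2 starts, and Slc29a1 had a match at 4 of its 8 starts. ACGTG was found only before Slc29a1 among these genes. A match is a string of letters and not a shown binding site.

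The 10 genes spanned a wide range of levels. In standard oxygen P2rx4 was the most abundant, at 183 TPM ± 27.5 (SD, n = 3). P2ry6 (64.6 ± 0.61 TPM) and Slc29a1 (62.3 ± 1.78 TPM) followed with overlapping ranges, and P2rx7 came next at 16.4 ± 1.07 TPM. The other 6 were low. Adora2b (2.24 ± 0.146 TPM) lay just above Ada (1.99 ± 0.11 TPM) without overlap. Ada in turn lay above Adora2a (1.29 ± 0.18 TPM) without overlap. Nt5e (1.80 ± 1.61 TPM), Entpd1 (1.68 ± 1.59 TPM) and Adora3 (1.45 ± 1.21 TPM) overlapped each other and Adora2b, Ada and Adora2a. They could not be ordered beyond their spread. The order P2rx4, P2ry6, Slc29a1, P2rx7 was the same in all 3 groups, with P2ry6 and Slc29a1 overlapping each time. Below them Nt5e had the fifth highest mean in both hypoxia groups. In chronic hypoxia that place rested on code Z (17.3 TPM), since Nt5e lay below Entpd1 in codes X and Y and the ranges overlapped.

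**Figure D1:**
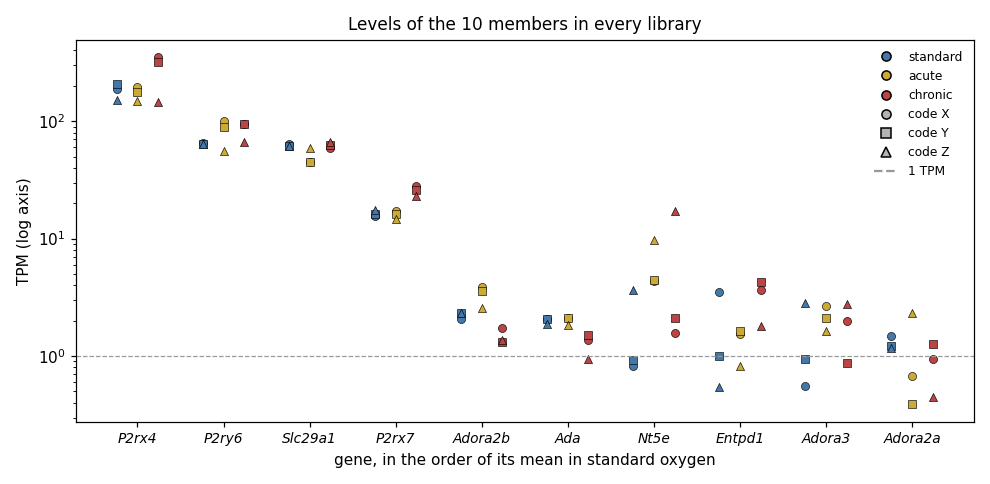
TPM of the 10 genes in each of the 9 libraries, on a log axis, with genes ordered by their mean in standard oxygen; colours are the 3 groups, marker shapes the 3 description codes and the dashed line 1 TPM. The 4 genes on the left are at 14.7 TPM or more in every library, and the 6 on the right are at 17.3 TPM or less.

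The 2 enzymes that make adenosine at the cell surface were Entpd1 (CD39), which degrades ATP and ADP to AMP, and Nt5e (CD73), which converts AMP to adenosine. Nt5e (ENSMUSG00000032420, chr9:88327197-88372092 on the plus strand of GRCm38) showed the largest difference of the 10 genes in acute hypoxia. In standard oxygen it was at 0.816 TPM in code X, 0.919 in code Y and 3.66 in code Z. After 3 hours of 1% oxygen the same codes gave 4.39, 4.46 and 9.72 TPM. All acute libraries lay above all standard ones, and within codes the ratio was 5.39, 4.85 and 2.65. After 7 days the values were 1.58, 2.10 and 17.3 TPM, above standard oxygen in every code but overlapping it as a group. Code Z was the highest library in each of the 3 groups.

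The log2 fold change of Nt5e in acute hypoxia against standard oxygen was 1.43 ± 0.145 (SE with the code block), and Nt5e rose in that fit at a limma adjusted p (Benjamini-Hochberg) of 0.0385. Without a block the SE was 0.451 and the limma adjusted p 0.525. With the code block and median-of-ratios rescaling the limma adjusted p was 0.0504. With the code block and all 9 samples in 1 fit, the SE was 0.341 and the limma adjusted p 0.108. Without the libraries of code Z it was 0.0198, at a log2 fold change of 1.54. In chronic hypoxia against standard oxygen Nt5e did not pass, with a log2 fold change of 1.06 ± 0.328 and a limma adjusted p of 0.0852 with the code block. Between chronic and acute hypoxia the codes went opposite ways. Chronic hypoxia was lower by log2 differences of -1.06 in code X and -0.818 in code Y and higher by 0.771 in code Z. Without code Z, Nt5e was lower in chronic than in acute hypoxia, by -0.94 ± 0.173 (log2, SE), with a limma adjusted p of 0.0269.

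Entpd1 (ENSMUSG00000048120, chr19:40612366-40741602, plus strand) was at 3.49, 0.999 and 0.547 TPM in standard oxygen in codes X, Y and Z. In acute hypoxia it was at 1.54, 1.65 and 0.819 TPM, and in chronic hypoxia at 3.68, 4.29 and 1.82 TPM. Every chronic library thus lay above every acute one, while standard oxygen spanned 0.547 to 3.49 TPM and overlapped both. Within codes chronic hypoxia exceeded acute hypoxia 2.38-, 2.60- and 2.22-fold. The log2 fold change was 0.84 ± 0.178 (SE with the code block), and Entpd1 rose in that fit with a limma adjusted p of 0.0389, against 0.196 unblocked and 0.0634 with the code block and rescaling. Compared with standard oxygen it passed in neither hypoxia group (limma adjusted p without a block 1 in acute and 0.355 in chronic hypoxia). The direction in acute hypoxia was -0.060 on the log2 scale with a pseudocount of 1 and 0.016 with a pseudocount of 0.1.

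Adenosine is removed by Slc29a1 (ENT1), the equilibrative transporter that carries it across the cell membrane, and by Ada, which deaminates it to inosine. Slc29a1 (ENSMUSG00000023942, chr17:45585200-45599606, minus strand) was at 64.3, 60.9 and 61.7 TPM in standard oxygen in codes X, Y and Z. It was at 45.0, 44.9 and 58.9 TPM in acute and at 58.8, 62.2 and 66.3 TPM in chronic hypoxia. All acute libraries lay below all standard ones, and code Z moved least. The log2 fold change in acute hypoxia was -0.33 ± 0.126 (SE), with a limma adjusted p of 0.634 unblocked and 0.287 code-blocked. Without the libraries of code Z, Slc29a1 was lower by -0.47 ± 0.0695 (log2, SE), with a limma adjusted p of 0.0453, or 0.0508 with the code block added. Between chronic and acute hypoxia the difference was 0.34 ± 0.134 (log2, SE), at limma adjusted p-values of 0.225 unblocked and 0.0573 code-blocked. In codes X and Y alone, Slc29a1 was higher in chronic hypoxia by 0.42 with a limma adjusted p of 0.0269. In chronic hypoxia against standard oxygen the difference was 0.0021 on the log2 scale and turned to -0.18 after rescaling, at limma adjusted p-values of 0.992 and 0.382. Antisense gene Gm17080, which is not listed in the tables, overlaps 6.86% of the Slc29a1 exon length, and whether the counting used strand is not stated.

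Ada (ENSMUSG00000017697, chr2:163726584-163750239, minus strand) was nearly level between standard oxygen (2.06, 2.05 and 1.86 TPM) and acute hypoxia (2.11, 2.09 and 1.83 TPM). In chronic hypoxia it was at 1.36, 1.51 and 0.946 TPM, below every library of the other groups. The log2 fold change of chronic hypoxia was -0.40 ± 0.202 against standard oxygen and -0.41 ± 0.202 against acute hypoxia (SE). Ada did not pass in either, at limma adjusted p-values of 0.29 and 0.299 unblocked and 0.168 and 0.178 code-blocked.

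Of the adenosine receptors, Adora2b (ENSMUSG00000018500, chr11:62248984-62266453, plus strand) encodes the low-affinity A2B receptor and had opposite differences in acute and chronic hypoxia. It was at 2.07, 2.34 and 2.31 TPM in standard oxygen in codes X, Y and Z. In acute hypoxia it was at 3.90, 3.56 and 2.58 TPM and in chronic hypoxia at 1.73, 1.32 and 1.37 TPM. The 3 groups did not overlap, with acute hypoxia the highest and chronic hypoxia the lowest. Between chronic and acute hypoxia the log2 fold change was -0.80 ± 0.174 (SE with the code block), and Adora2b fell in that fit with a limma adjusted p of 0.0404, or 0.0402 with rescaling added. Without a block the limma adjusted p was 0.106. The differences from standard oxygen were 0.41 in acute and -0.39 in chronic hypoxia on the log2 scale, and neither passed (limma adjusted p 0.732 and 0.263 unblocked, 0.372 and 0.174 code-blocked).

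Adora2a (ENSMUSG00000020178, chr10:75316877-75334784, plus strand), the gene of a high-affinity adenosine receptor, was low and uneven. It was at 1.16 to 1.5 TPM in standard oxygen, 0.388 to 2.35 in acute and 0.451 to 1.27 in chronic hypoxia. The highest acute library was that of code Z, and code Z also gave the lowest chronic library. Adora3 (ENSMUSG00000000562, chr3:105870858-105908926, plus strand), the A3 receptor gene, ranged from 0.558 to 2.83 TPM in standard oxygen, from 1.62 to 2.69 in acute and from 0.868 to 2.77 in chronic hypoxia. The groups overlapped in all comparisons of these receptors, and neither passed in any (limma adjusted p without a block of 0.53 or more for Adora2a and 0.726 or more for Adora3). Adora3 shares 20.9% of its exon length with Tmigd3 on the same strand, and 26.05% of the 75-base words in its longest transcript also occur in Tmigd3, so its values are uncertain. Tmigd3 itself was at 0.214 to 0.824 TPM. The fourth adenosine receptor gene, Adora1, was at 0.0417 TPM or less in all libraries.

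P2rx7 (ENSMUSG00000029468, chr5:122643911-122691432, plus strand), the ATP-gated channel upstream of the inflammasome, was the 1 gene of the 10 that passed without a block. It was at 15.6, 16.1 and 17.6 TPM in standard oxygen in codes X, Y and Z. Acute hypoxia gave 17.2, 16.1 and 14.7 TPM and chronic hypoxia 28.2, 26.1 and 23.2 TPM. All chronic libraries lay above the other 6, which overlapped. P2rx7 rose in chronic hypoxia against standard oxygen by a log2 fold change of 0.62 ± 0.116 (SE), with a limma adjusted p of 0.0498 unblocked and 0.0272 code-blocked. The median of all 11067 genes tested was 0.162 in that comparison and -0.0018 after median-of-ratios rescaling. Rescaled, the log2 fold change of P2rx7 was 0.45, with a limma adjusted p of 0.148 unblocked and 0.0653 code-blocked. The call was also lost with a pseudocount of 5, without the filter on low values, without the trend, with quantile normalization, and when any of standard replicates 1 and 3 or chronic replicates 1 and 2 was left out (limma adjusted p 0.0514 to 0.209).

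Between chronic and acute hypoxia P2rx7 differed by 0.682, 0.659 and 0.618 (log2) in codes X, Y and Z, the most even difference among the 10 genes in this comparison. With the code block it rose by 0.65 ± 0.081 (log2, SE), with a limma adjusted p of 0.0136, or 0.0275 with rescaling added. Without a block the limma adjusted p was 0.0653. In acute hypoxia against standard oxygen the log2 difference was -0.034 ± 0.107 (SE), with a limma adjusted p of 1, and without code Z it was 0.071.

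P2rx4 (ENSMUSG00000029470, chr5:122707544-122729738, plus strand) encodes another ATP-gated channel and starts 16111 bases after the end of P2rx7. It was at 187, 207 and 153 TPM under standard oxygen, at 195, 179 and 148 TPM in acute and at 352, 321 and 145 TPM in chronic hypoxia, in codes X, Y and Z. The chronic libraries of codes X and Y lay above all others, and that of code Z was the lowest of the 9. Code Z was also the lowest library of each group. Over all 3 codes the log2 difference of chronic hypoxia from standard oxygen was 0.48 ± 0.34 (SE), with a limma adjusted p of 0.44 unblocked and 0.146 code-blocked. In codes X and Y alone, chronic hypoxia was higher by 0.77 ± 0.0871 against standard oxygen and by 0.84 ± 0.0862 against acute hypoxia (log2, SE). The limma adjusted p-values of these fits were 0.00741 and 0.00753. The code left out, Z, went the other way, by -0.078 and -0.031 (log2) in the same order. Some marker genes also divided by code in chronic hypoxia. The macrophage marker Adgre1 was at 474 and 512 TPM in codes X and Y. In code Z Adgre1 was at 253 TPM, the lowest of the 9, and its part was not tested. Of the other macrophage markers there, code Z was lowest for Csf1r (579 TPM), Cd68 (1053 TPM) and Itgam (729 TPM, against 744 and 807). Code Z was highest for Fcgr1 (32.1 TPM, against 30.2 and 28.4) and lay between codes X and Y for Lyz2 and Cd14. Pf4 was at 25.4 and 27.3 TPM in codes X and Y and 1.65 TPM in code Z, against 2.67 TPM or less in all other libraries. The other platelet and megakaryocyte markers were Itga2b, at 0.768 TPM or less, and Gp9, at 0 in the 3 chronic libraries and at most 4.70 TPM elsewhere. The summed level of that list was 2.81 to 3.99 TPM in standard oxygen, 1.96 to 5 in acute and 1.89 to 28.1 in chronic hypoxia, and its part in the result on P2rx4 was not tested.

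P2ry6 (ENSMUSG00000048779, chr7:100937630-100974649, minus strand) encodes the UDP receptor P2Y6. Its 3 standard libraries were nearly equal, at 65.3, 64.1 and 64.4 TPM. In acute hypoxia it was at 101, 88.9 and 55.9 TPM and in chronic hypoxia at 94.2, 94.1 and 66.0 TPM, in codes X, Y and Z. Codes X and Y were higher in both hypoxia groups, and code Z was lower in acute hypoxia and 1.02-fold higher in chronic hypoxia. The log2 fold change was 0.29 ± 0.214 in acute and 0.37 ± 0.155 in chronic hypoxia (SE), at limma adjusted p-values of 0.95 and 0.222 unblocked and 0.505 and 0.1 code-blocked. In codes X and Y alone, P2ry6 was higher in chronic hypoxia by 0.53 ± 0.067 (log2, SE), with a limma adjusted p of 0.0094. In acute hypoxia the value without code Z was 0.54 ± 0.0851, with a limma adjusted p of 0.0507, or 0.047 with the code block added.

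**Figure D2:**
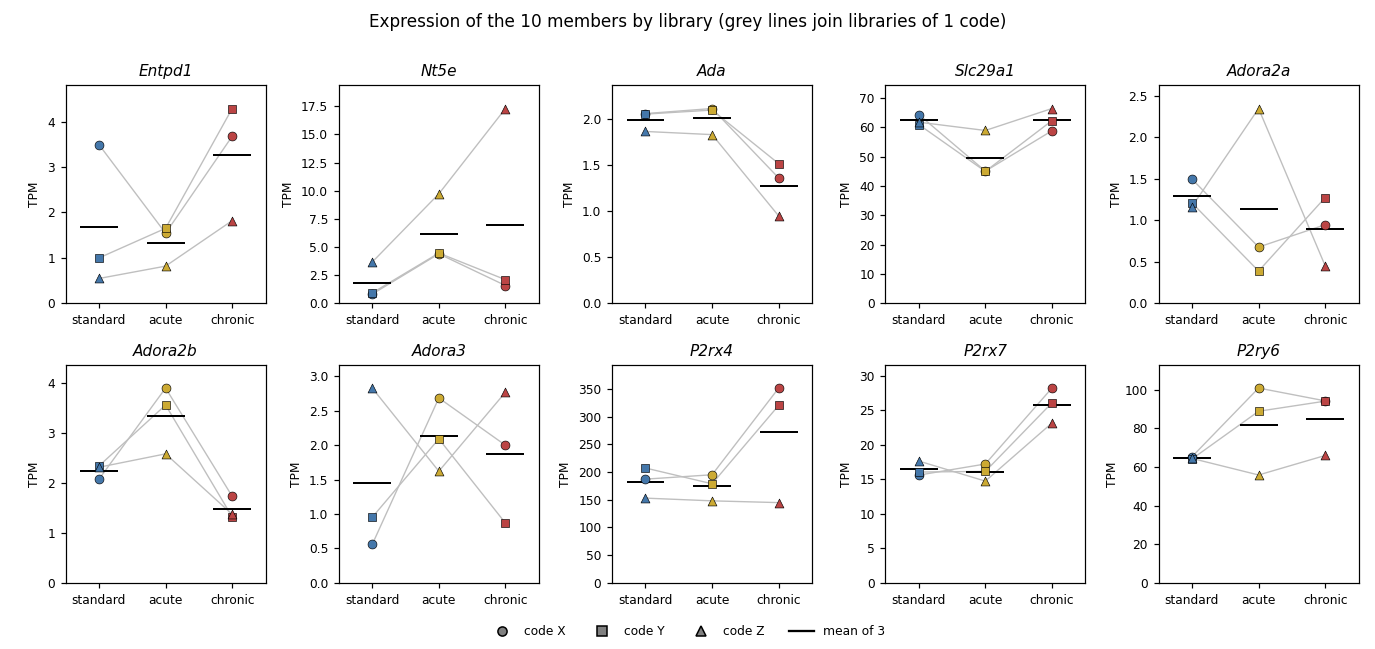
TPM of each of the 10 genes (1 panel a gene, axes from 0) in standard oxygen, acute and chronic hypoxia; each point is a library, marker shapes and grey lines follow the description code and black bars are means of 3. Nt5e is highest in code Z in each group, P2rx4 reaches 352 and 321 TPM in chronic hypoxia in codes X and Y but 145 TPM in code Z, and P2rx7 is at 23.2 TPM or more in chronic hypoxia in all codes.

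Counted over the 10 genes, 0 passed in acute hypoxia against standard oxygen without a block (2 at an unadjusted p under 0.05), where 0.0273% of all 10987 genes tested passed. With the code block 1 passed, Nt5e, against 0.710% of all genes. In chronic hypoxia against standard oxygen 1 passed both without and with the code block, P2rx7, against 2.69% and 18.4% of all genes. Between chronic and acute hypoxia 0 passed without a block (4 at an unadjusted p under 0.05), against 0.695% of all genes, and 3 passed with the code block (P2rx7 and Entpd1 higher, Adora2b lower), against 15.5%. Without the libraries of code Z and without a block, 2 of 9 tested passed in acute hypoxia (Nt5e and Slc29a1, against 2.95% of all genes), 3 of 10 in chronic hypoxia against standard oxygen (21.1%) and 6 of 9 between chronic and acute hypoxia (16.3%). With the code block and rescaling 0, 0 and 2 of the 10 passed, against 0.491%, 11.4% and 9.80% of all genes. The 6 genes that passed between chronic and acute hypoxia without code Z were P2rx4, P2rx7, Entpd1 and Slc29a1, which were higher in chronic hypoxia, and Adora2b and Nt5e, which were lower.

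The median log2 fold change of the 10 genes was -0.012 in acute and 0.327 in chronic hypoxia against standard oxygen, and -0.0097 between chronic and acute hypoxia. The medians of all genes tested were 0.011, 0.162 and 0.143 in the same order. Groups did not overlap for 3 genes in acute hypoxia (Nt5e and Adora2b higher, Slc29a1 lower), where 7.63% of all genes tested separated higher and 4.85% lower. The same held for 4 of the 10 in chronic hypoxia against standard oxygen (P2rx7 and P2ry6 higher, Ada and Adora2b lower), where 24.2% of all genes separated higher and 5.39% lower. It also held for 4 of the 10 between chronic and acute hypoxia (P2rx7 and Entpd1 higher, Ada and Adora2b lower), where 22.3% of all genes separated higher and 5.50% lower. In chronic hypoxia against standard oxygen P2ry6 separated narrowly, with its lowest chronic library at 66.0 TPM and its highest standard one at 65.3 TPM. The acute and chronic comparisons use the same standard oxygen samples.

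**Figure D3:**
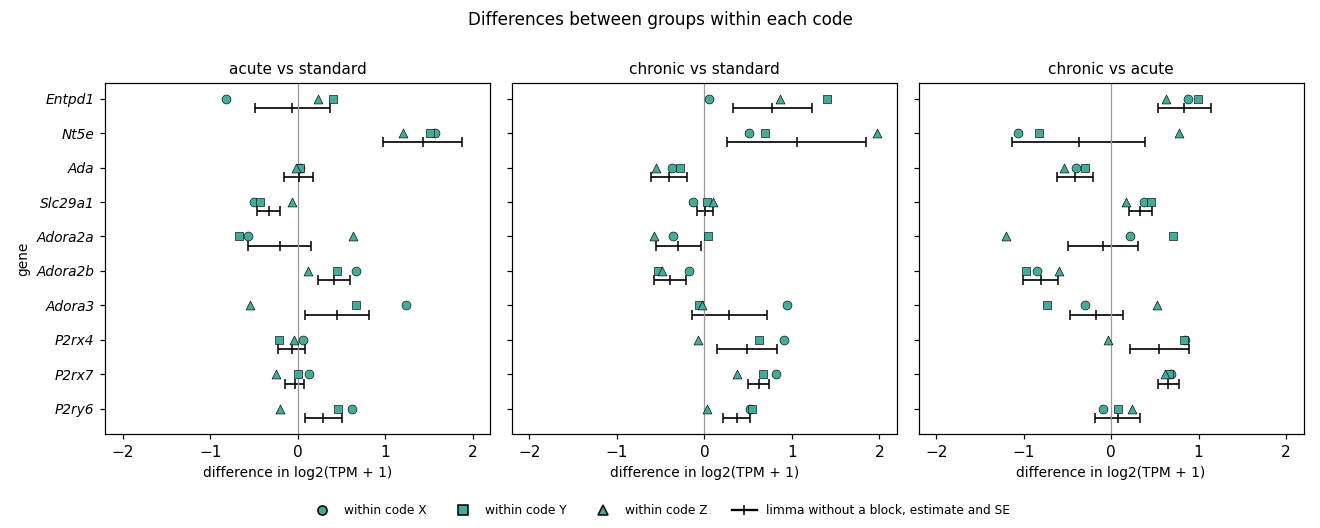
Differences in log2(TPM + 1) for the 10 genes in the 3 comparisons; points are the differences within the 3 description codes, and the ticks with bars beneath them are the limma estimates without a block and their SE. Nt5e lies between 1.20 and 1.57 in acute hypoxia in all codes, and P2rx7 between 0.618 and 0.682 in chronic against acute hypoxia.

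The other genes of the pathway were read from 8 lists with 74 genes, all matched, of which 48 reached the mean of 1 TPM in each comparison. In acute hypoxia against standard oxygen 0 of 48 passed unblocked and 0 code-blocked (2 and 9 at an unadjusted p under 0.05 in limma). In chronic hypoxia against standard oxygen 1 of 48 passed without a block, and 6 passed higher and 1 lower with the code block. Between chronic and acute hypoxia 1 passed without a block, and 5 passed higher and 3 lower with the code block. The shares passing over all genes are those given above. The median log2 fold change of the 48 was 0.031, 0.164 and 0.083 in the same order of comparisons.

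Surface enzymes besides CD39 and CD73 were mostly absent or level. Entpd2, Entpd8 and Alpl were listed at 0 in all libraries, and Entpd3, Enpp2 and Enpp3 were at 0.372 TPM or less. The NAD-consuming enzymes were more abundant than Entpd1 and Nt5e, with Cd38 at 9.45 to 32.7 TPM and Bst1 at 85.0 to 159 TPM. Enpp1 was at 5.24 to 6.30 TPM in codes X and Y and at 0.575 to 0.813 TPM in code Z, across all groups. None of the 3 tested genes of this list (Cd38, Bst1 and Enpp1) passed in any comparison, without a block or with the code block. Of the adenosine and inosine metabolism list, only Nt5c passed, in chronic hypoxia against standard oxygen with the code block (log2 fold change 0.32, limma adjusted p 0.0401, and 0.24 with rescaling added). Nt5c encodes a cytosolic nucleotidase, and Adk, the adenosine kinase gene, was at 46.3 to 59.7 TPM.

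Of the ATP release list 6 of 9 genes were tested, and Gja1, Panx1, Slc17a9 and Ank passed in at least 1 fit. Gja1, which encodes the gap junction protein connexin 43, was at 0.559, 0.438 and 1.20 TPM in standard oxygen in codes X, Y and Z. It was at 1.15, 1.62 and 4.06 TPM in acute and at 13.3, 12.6 and 45.4 TPM in chronic hypoxia. Every chronic library lay above every other, and Gja1 rose against standard oxygen by 3.61 ± 0.491 (log2, SE), with a limma adjusted p of 0.0272 unblocked and 0.00754 code-blocked. Panx1, which encodes an ATP-permeable channel, was at 55.7, 56.2 and 28.7 TPM in standard oxygen, at 47.0, 43.9 and 27 TPM in acute and 26.6, 24.4 and 13.2 TPM in chronic hypoxia. All chronic libraries lay below all others, and with the code block Panx1 fell by 1.09 (log2) against standard oxygen and by 0.87 against acute hypoxia, at limma adjusted p-values of 0.00689 and 0.0106 (0.137 and 0.196 unblocked). Slc17a9, the vesicular nucleotide transporter gene, was higher in chronic hypoxia by 0.51 and 0.65 (log2) in these 2 comparisons, at code-blocked limma adjusted p-values of 0.0313 and 0.0286, or 0.0866 and 0.0583 with rescaling added. Ank, whose product promotes efflux of ATP, was higher by 0.71 against standard oxygen in the code-blocked fit (limma adjusted p 0.0286, and 0.062 with rescaling added). Panx2, Panx3 and Abcc6 did not reach 1 TPM on average.

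Of the other adenosine and P2 receptor genes, 3 of 13 were tested (P2rx1, P2ry2 and P2ry14). P2ry2, a receptor for ATP and UTP, was at 19.3 to 22.6 TPM in standard oxygen, 20.1 to 26.8 in acute and 15.1 to 17.4 in chronic hypoxia. It fell in chronic against acute hypoxia with the code block by 0.48 (log2) at a limma adjusted p of 0.0285. P2ry12 and P2ry13, ADP receptor genes, stayed under the filter, at 1.02 TPM or less in every library.

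Of the cAMP list 13 of 15 genes were tested. Pde4b, a cAMP phosphodiesterase gene, was at 4.92 to 6.24 TPM in acute and 10.5 to 11.3 TPM in chronic hypoxia, with standard oxygen at 3.55 to 9.58 TPM. It rose in chronic against acute hypoxia by 0.88 ± 0.127 (log2, SE), with a limma adjusted p of 0.0493 unblocked and 0.0138 code-blocked. Rescaled, the unblocked value was 0.74 at a limma adjusted p of 0.0819, and the code-blocked adjusted p was 0.0233. Pde4d, of the same family, fell in that comparison with the code block by 0.99 (log2, limma adjusted p 0.0189). It was at 4.60 to 6.45 TPM in acute, 2.30 to 3.25 in standard oxygen and 1.52 to 3.28 in chronic hypoxia. Creb1, a cAMP-responsive transcription factor gene, rose in chronic hypoxia against standard oxygen with the code block by 0.53 (log2, limma adjusted p 0.0322, and 0.0875 with rescaling added).

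In the list downstream of P2X7, Nlrp3, the inflammasome sensor gene, was at 17.5, 17.7 and 36.5 TPM in standard oxygen in codes X, Y and Z. It was at 31.9, 31.7 and 32.6 TPM in acute and 43.5, 49.6 and 53.0 TPM in chronic hypoxia, where every library lay above all others. With the code block Nlrp3 rose by 1.08 against standard oxygen and by 0.58 against acute hypoxia (log2), at limma adjusted p-values of 0.0269 and 0.0176 (0.0997 and 0.0653 unblocked). Nek7, which encodes an NLRP3 partner, rose in chronic against acute hypoxia with the code block by 0.32 (log2, limma adjusted p 0.0427, and 0.188 with rescaling added). Pycard, Casp1, Gsdmd and Il18 passed in no comparison in either fit, and Il1b, at 2.32 TPM or less, was not tested.

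**Figure D4:**
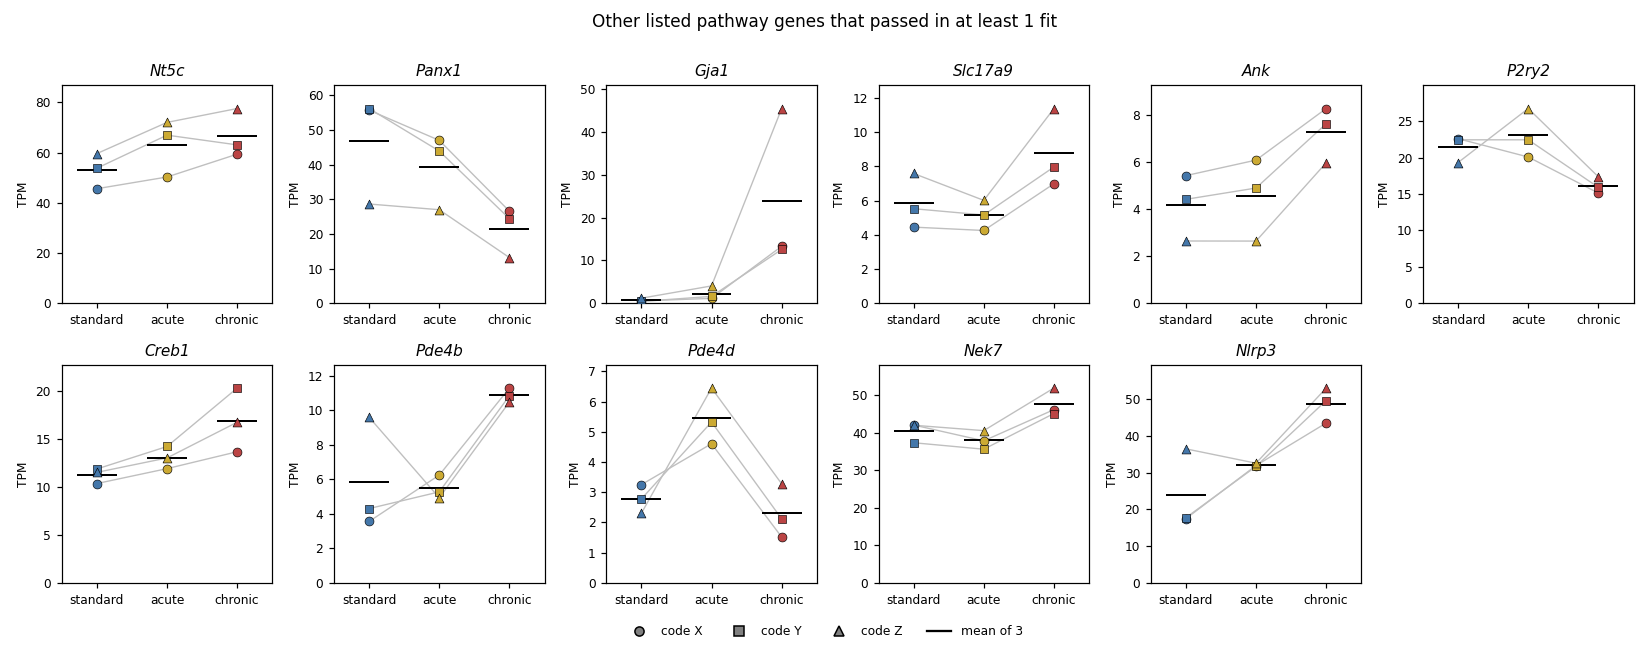
TPM (axes from 0) of the 11 other pathway genes, of 48 tested, that passed in at least 1 comparison without or with the code block. They are drawn as for the 10 genes, with black bars as means of 3. The share of all genes that passed in at least 1 of these fits was not computed. Gja1 reaches 12.6 to 45.4 TPM in chronic hypoxia, Panx1 falls to 13.2 to 26.6 TPM there, and Nlrp3 lies at 43.5 TPM or more.

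For P2rx7 the genes of most similar pattern over the 9 libraries, among 11064 genes with a mean of at least 1 TPM, were Dock11 (Pearson r 0.994), Dpep2 (ENSMUSG00000053687, r 0.988) and Minpp1 (r 0.985). Dock11 was at 17.7 ± 1.15 TPM in standard oxygen, 17.1 ± 0.871 in acute and 25.1 ± 2.53 in chronic hypoxia (SD, n = 3). Correlations above 0.9 with P2rx7 were found for 237 genes, all computed across the same 9 libraries in 3 groups.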

How the data were processed

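RNA was extracted with a Qiagen kit and mRNA libraries were prepared on the Illumina TruSeq platform, with paired reads of 75 bases, per the labels' protocols. The submitters' processing notes name FastQC, STAR, featureCounts and the build GRCm38, without a role or order. The authors deposited TPM per gene in 3 tables, 1 for each pair of groups, with 34866 genes and 6 sample columns each. How TPM was computed, the annotation and any filter are not given in the sources used here. Shared samples had identical values in both tables that held them. Symbols were matched for 34582 genes, and positions come from GENCODE M21 (GRCm38).

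Each comparison was fitted on its 6 samples with limma 3.58.1 in R 4.3.3 (eBayes with trend, two-sided) on log2(TPM + 1), over genes with a mean of at least 1 TPM, with Benjamini-Hochberg adjustment over all of them. The function was tested without a block on simulated data that held no differences between codes. The code-blocked fit was not tested in this way. Deviations from group means correlated between libraries of the same description code in every pair (r 0.375 to 0.631 across genes). The code was therefore used as a block beside the fit without one. Code Z stood apart in each group, so libraries of codes X and Y can deviate alike however they are matched. The correlation of code X with code Y across groups was not computed, and their match rests on the digits alone. Libraries of the same title number correlated at -0.508 to 0.395 in the comparisons with standard oxygen.

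The 10 genes and the lists were chosen with earlier results of these data known. All 10 were named, as was each listed pathway gene that passed without a block or with the code block, and the 3 genes of most similar pattern for each of the 10 that passed without a block. The listed symbol Ankh was matched to Ank through a RefSeq synonym. Alternatives covered the pseudocount (0.1 or 5), the filter (none, or 5 TPM), the trend, rescaling, quantile normalization, all 9 samples in 1 fit, blocks, the libraries of code Z and each replicate; the code block without code Z was added after seeing the data.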

Additional observations from a re-analysis of the deposited data

Results flagged for a closer look

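Adora2b was higher in acute hypoxia than in standard oxygen in 3 of 3 codes and lower in chronic hypoxia than in standard oxygen in 3 of 3, the only one of the 10 genes whose difference went opposite ways in every code. The differences within codes X, Y and Z were 0.672, 0.449 and 0.112 in acute and -0.171, -0.526 and -0.483 in chronic hypoxia (log2). The difference itself, chronic against acute hypoxia, was -0.80 on the log2 scale, at a limma adjusted p of 0.106 unblocked and 0.0404 code-blocked. Its levels were at 1.32 to 3.90 TPM, and counting error at that level is unknown.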

How the results depend on the processing

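TPM carries no depth, so the precision of genes near 1 TPM is unknown, and 6 of the 10 genes had a mean under 3 TPM in standard oxygen. Without a block 0, 1 and 0 of the 10 genes passed in acute against standard, chronic against standard and chronic against acute. The code block gave 1, 1 and 3, the code block with rescaling 0, 0 and 2 (against 0.491%, 11.4% and 9.80% of all genes), and the code block with all 9 samples 0, 1 and 3 (1.87%, 26.3% and 22.2%). The title number as a replicate block gave 0, 0 and 3 (0%, 0.00904% and 15.5%). All 9 samples in 1 fit gave 0, 1 and 2 (0.228%, 6.96% and 3.76%). Leaving out the libraries of code Z gave 2, 3 and 6 (2.95%, 21.1% and 16.3%), and with the code block also 2, 3 and 6 (3.02%, 35.0% and 25.1%). The 2 in acute hypoxia were Nt5e and Slc29a1 without the block and Nt5e and P2ry6 with it (limma adjusted p 0.0426 and 0.047). In chronic against standard the count was 0 with a pseudocount of 5, without the filter, without the trend, and with rescaling or quantile normalization. In these settings 0.614% (no filter) to 2.57% (pseudocount of 5) of all genes passed, against 2.69% without a block. Leaving out 1 replicate gave 0 to 3 there, with 3 without chronic replicate 3 (4.32% of all genes). The count was 0 without standard replicate 1 or 3 (0.162% and 0.126%) or chronic replicate 1 or 2 (0.226% and 0.00903%). Leaving out 1 replicate gave 0 to 2 in chronic against acute, with 2 without chronic replicate 3 (2.79%). Without any other replicate the count there was 0 (0.00901% to 0.815%). The share over all genes thus moved along with these counts. The causes of these moves were not tested.

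Changes of sign were confined, among the settings run, to differences that passed in no fit with all codes. In acute hypoxia Entpd1 was 0.016 with a pseudocount of 0.1, Ada -0.0044 with rescaling (also with the code block) and -0.033 with quantile normalization, and P2rx7 0.071 without code Z, without and with the block. In chronic against standard Slc29a1 was -0.18 with rescaling (also with the code block), -0.15 with quantile normalization and -0.049 without code Z. In chronic against acute P2ry6 was -0.082, -0.036 and -0.0077 in the same settings. Leaving out 1 replicate gave, in acute hypoxia, Entpd1 -0.38 to 0.39, Ada -0.021 to 0.054, Adora2a -0.24 to 0.052, P2rx4 -0.19 to 0.045 and P2rx7 -0.084 to 0.021. It gave Slc29a1 -0.042 to 0.044 in chronic against standard. In chronic against acute it gave Nt5e -1.27 to 0.14, Adora2a -0.35 to 0.086, Adora3 -0.39 to 0.12 and P2ry6 -0.18 to 0.24 (all log2). In the comparisons with standard oxygen the title number gave the same pair as the code only for replicate 1. In chronic against acute it gave the same pairs as the code throughout.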
